A study of Mus musculus with 6 samples.

Results

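The luminal layer of the pregnant mouse uterus was compared between 1 library labelled *Lif* eKO and 1 library labelled control. Genes entered the comparison when their counts summed to at least 10 over the 3 luminal libraries of the series, which held for 15694 of the 23420 genes in the table. Both libraries came from females carrying the floxed *Lif* allele on both chromosomes and given PBS, and tissue was taken on day 4 of pregnancy at 8 pm. The control females had no Cre. The eKO females also carried 1 copy of Ltf-Cre, which expresses the recombinase from the lactoferrin promoter, active in uterine epithelium. The remaining luminal library came from eKO females injected with recombinant Lif (rLif, 20 µg per head, at 10 am and again at 6 pm). It is on neither side of the comparison, and its values are given beside some results. It is called the rLif library below. The epithelium lining the lumen had been cut from frozen sections by laser microdissection, and RNA of 3 samples was pooled into each library. Each group was thus 1 library without a replicate, variation between animals is unknown, and p-values are not given.

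Lif is a cytokine of the interleukin-6 family that uterine glands secrete shortly before blastocysts attach. It binds a receptor made of Lifr and gp130 (encoded by *Il6st*) on the luminal epithelium, where Jak kinases phosphorylate Stat3, which then enters the nucleus and switches on genes such as its own inhibitor *Socs3*. The luminal epithelium is the first maternal tissue that the blastocyst meets, and it shapes the uterine fluid by secretion, absorption and ion transport.

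Total counts were 23850565 in the library labelled control and 28460465 in the one labelled eKO. *Lif* itself, on chromosome 11 from 4257568 to 4272514 (GRCm38), had 28 counts in the library labelled eKO and 0 in the one labelled control. With the 0 set to 3 counts the ratio was 8.20-fold, and the exact 95% interval of its log2 began at 2.64. These 28 counts make 0.241 RPKM, a read count divided by exon length and library size (exact Poisson 95% interval 0.160 to 0.349), and 3 counts, the floor used for a library at 0, make 0.0294 RPKM in the library labelled control. The gene total includes exons outside the deleted stretch, so it does not check the deletion, but its direction is opposite to the label. *Socs3*, a target of Lif signalling, was lower in the library labelled eKO (21.6 and 1.96 RPKM), which is the direction of the label. The libraries are called by their labels throughout. All 8 markers of luminal epithelium were detected, with summed levels of 2980.0 RPKM in the library labelled control and 4697 in the one labelled eKO. Glandular markers summed to 15.3 and 22.1 RPKM, with *Foxa2* at 3 and 0 counts. None of 5 haemoglobin genes was among the tested genes, and *Alas2*, the other erythroid marker, was called higher by the rule below (23 and 112 counts). Summed levels in the same order were 289 and 399.9 RPKM for 10 stromal markers (2 called higher by the rule below), 38.4 and 31.9 for 7 smooth muscle markers (1 higher, 2 lower), 1188 and 1133 for 10 immune markers (1 higher) and 32.9 and 43.0 for 8 endothelial markers (1 higher). The 4 mesothelial markers summed to 6.76 and 11.5 RPKM and differed in both directions. *Msln* (21 and 0 counts) and *Upk3b* (145 and 0) were called lower, and both passed the count minimum only through the library labelled control. *Wt1* was called higher (2.83 and 9.66 RPKM), and *Upk1b* was not called (0.717 and 1.81 RPKM). Of 5 blastocyst markers, 2 were called higher on few counts, *Cdx2* (0 and 15) and *Dppa3* (2 and 39). *Cdx2* passed the count minimum only through the library labelled eKO, which nearly fixed its call. *Elf5* (75 and 76 counts), *Eomes* (65 and 60) and *Gata6* (3 and 21) were not called. *Pou5f1* and *Nanog* were not among the tested genes. The part of such cells in the results was not tested. In bulk tissue, fewer cells of a type and less RNA per cell cannot be told apart.

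A gene was called when the exact 95% interval of its ratio between the libraries, after TMM scaling of the library sizes, lay wholly beyond a 2-fold difference. This called 2704 of 15694 genes (17.2%), of which 1268 (8.08%) were higher and 1436 (9.15%) lower in the library labelled eKO. Beyond 4-fold, 868 genes (5.53%) remained. The interval compares libraries rather than genotypes, and it covers counting error alone, because it is computed only from the read counts of unreplicated libraries. PCR copies were not marked by molecular identifiers, so copies of the same molecule could be counted as separate reads. The interval may therefore be too narrow even for the counting of molecules. The same rule called 3.15% of 14873 genes between the corresponding blastocyst libraries, a difference that was not tested. Over all genes the median log2 ratio of eKO to control was 0.01. Protein coding genes were called at 17.0%, and long intergenic non-coding RNAs at 33.7% (45 higher and 18 lower of 187), although the latter had a median of only 20 counts in the library labelled control against 413 for coding genes.

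Called genes were most frequent at both ends of the abundance range. Level was measured as the mean RPKM of both libraries. Below 1 RPKM 967 of 4032 genes were called, and between 1 and 10 RPKM 14.5% of 6243. The share was 14.6% of 4337 genes between 10 and 100 RPKM and 16.8% of 1021 between 100 and 1000 RPKM. Among the 61 genes at 1000 RPKM and over, 25 (41.0%) were called, 14 higher and 11 lower. These shares were not compared by a test. Precision differs between the classes, with a median of 17 control counts below 1 RPKM and 35972 in the most abundant class.

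**Figure D1:**
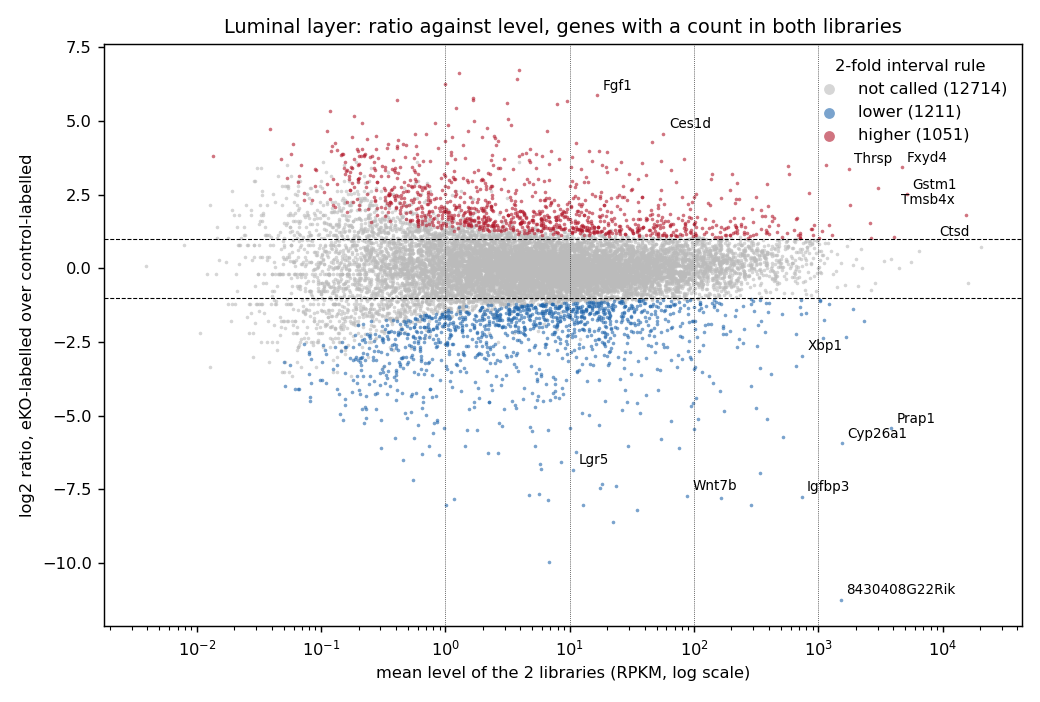
Log2 ratio of the library labelled eKO to the one labelled control (vertical axis) against the mean RPKM of both libraries (horizontal axis, log scale), 1 point per gene with a count in both, coloured by the 2-fold interval rule. Dashed lines mark a 2-fold difference and dotted lines the abundance classes, and called genes appear in both directions up to the most abundant transcripts, such as *Tmsb4x* (log2 ratio 1.81) and *Prap1* (-5.42).

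Ratios also moved with exon length. In 5 equal classes of summed exon length, the median log2 ratio was 0.26 for genes of up to 1505 bases, -0.12 from 1506 to 2291 bases, -0.21 from 2292 to 3221 bases, -0.08 from 3222 to 4616 bases and 0.16 above that. The shortest class was above control in the rLif library as well (median log2 ratio 0.32). Its share of the summed RPKM was 55.7% in the library labelled control and 62.8% in the one labelled eKO. After centring each class on its median, 2643 genes were called, against 2704 before. The part of length in the results below was not tested, and length-centred medians are given below for lists of short transcripts.

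**Figure D2:**
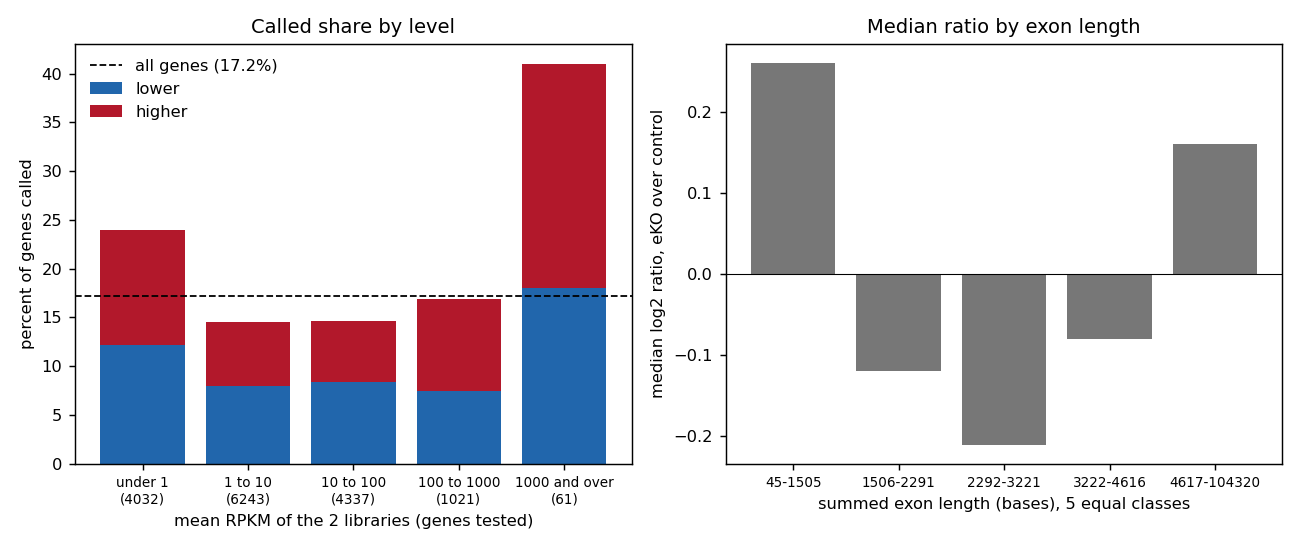
Left, percent of tested genes called lower (blue) or higher (red) in the library labelled eKO in 5 classes of mean RPKM, with the share over all genes (17.2%) as a dashed line. Right, median log2 ratio of eKO to control in 5 equal classes of summed exon length in bases. The called share peaks at 41.0% above 1000 RPKM, and the medians are above 0 for the shortest and longest genes and below 0 between them.

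To weigh genes by how much of the transcript pool they make up, each RPKM was expressed as a percent of the summed RPKM of its library. Between the libraries labelled control and eKO 24.1% of the pool differed (the sum of all increases in share). Genes called lower held 14.9% of the pool in the library labelled control and 2.93% in the one labelled eKO. Genes called higher held 7.05% and 21.1%. These 4 shares follow from how the genes were chosen. In the rLif library the genes called lower held 14.8% and those called higher 10.0%, and nothing is read from this, since genes chosen for extreme values in the library labelled eKO would tend to lie nearer to control in any other library. Of the 100 most abundant genes of each library, 59 were shared. The 10 genes with the largest differences carried 22.2% of the total difference, and the 100 largest carried 47.5%, so the remainder was spread over many genes of smaller difference.

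The 10 largest decreases in pool share were in genes of mixed function. *Prap1* (chromosome 7, 140093396 to 140097203), which encodes a small proline-rich acidic secreted protein, was at 7493 RPKM in the library labelled control and 175 in the one labelled eKO, from 1.31% to 0.0272% of the pool (log2 ratio -5.42, interval -5.47 to -5.37). *Cyp26a1* (chromosome 19, 37697808 to 37701536), the enzyme that breaks down retinoic acid, was at 3031 and 49.8 RPKM (-5.93). *Igfbp3* (chromosome 11, 7206091 to 7213923), which binds insulin-like growth factors outside the cell, was at 1462 and 6.79 RPKM (-7.75). All 3 genes lay far below the control value, and in the rLif library they were at 2849.7, 2481 and 785 RPKM. The antioxidant enzyme gene *Gpx2* was at 2785 and 560.1 RPKM (-2.31) and the interferon-induced membrane protein gene *Ifitm1* at 3643 and 1055 (-1.79). Iron storage was represented by the ferritin heavy chain gene *Fth1*, at 2761 and 1075 RPKM (-1.36), while the light chain gene *Ftl1* was not called (3082 and 3661 RPKM, 0.25). The tetraspanin-like membrane protein gene *Tm4sf1* (1816 and 354 RPKM, -2.36) and *8430408G22Rik* (named *Depp1* in RefSeq, 3015 and 1.24 RPKM, -11.24) were also among the 10 largest decreases. The remaining 2, the calcium-binding protein gene *S100g* (18670.2 and 13358 RPKM, -0.48) and *Wfdc2* (3315 and 2003 RPKM, -0.73), lay within 2-fold. In the rLif library the other 7 of these 10 genes did not all lie nearer to control, with *S100g* at 7701 RPKM, *Fth1* at 1385, *8430408G22Rik* at 1032, *Wfdc2* at 3015, *Tm4sf1* at 2515, *Gpx2* at 7486 and *Ifitm1* at 8064.

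The 10 largest increases were also in genes of mixed function. *Tmsb4x* (chromosome X, 167207094 to 167209218), whose product thymosin beta 4 holds actin monomers, was at 6804 RPKM in the library labelled control and 23914 in the one labelled eKO, or 1.19% and 3.71% of the pool (log2 ratio 1.81, interval 1.80 to 1.82). The lysosomal protease gene *Ctsd* came next, at 15226 and 25276 RPKM, or 2.67% and 3.92% of the pool, although its log2 ratio of 0.73 was within 2-fold. *Fxyd4* (chromosome 6, 117933559 to 117937335), which encodes a regulator of the sodium pump, was at 789 and 8556 RPKM (3.44). The glutathione S-transferase genes *Gstm1* (1538 and 8761 RPKM, 2.51) and *Gstm2* (786 and 5250.4 RPKM, 2.74) lie side by side on chromosome 3 and are similar in sequence, so reads could have been split between them. Another pair of neighbours, on chromosome 7, was *Thrsp* (308 and 3209 RPKM, 3.38), a regulator of fat synthesis, and *Ndufc2* (655 and 2919 RPKM, 2.15), a subunit of respiratory complex I. *Tmsb4x*, *Fxyd4*, *Gstm1*, *Gstm2*, *Thrsp* and *Ndufc2* were nearer to control in the rLif library, from 482 RPKM for *Thrsp* to 10235 RPKM for *Tmsb4x*. By contrast, the metallothionein gene *Mt1*, which binds zinc and copper, was at 2629 and 5495 RPKM (1.06) and at 5847 RPKM with rLif. Its call was lost when libraries were scaled by total counts and after length centring. *B2m*, the light chain of class I histocompatibility molecules, was at 1344 and 3898 RPKM (1.54). The glutathione transferase gene *Gsto1* (5087 and 7717 RPKM, 0.60) was within 2-fold. With rLif, *Ctsd* was at 25213 RPKM, *B2m* at 2501 and *Gsto1* at 6387.

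**Figure D3:**
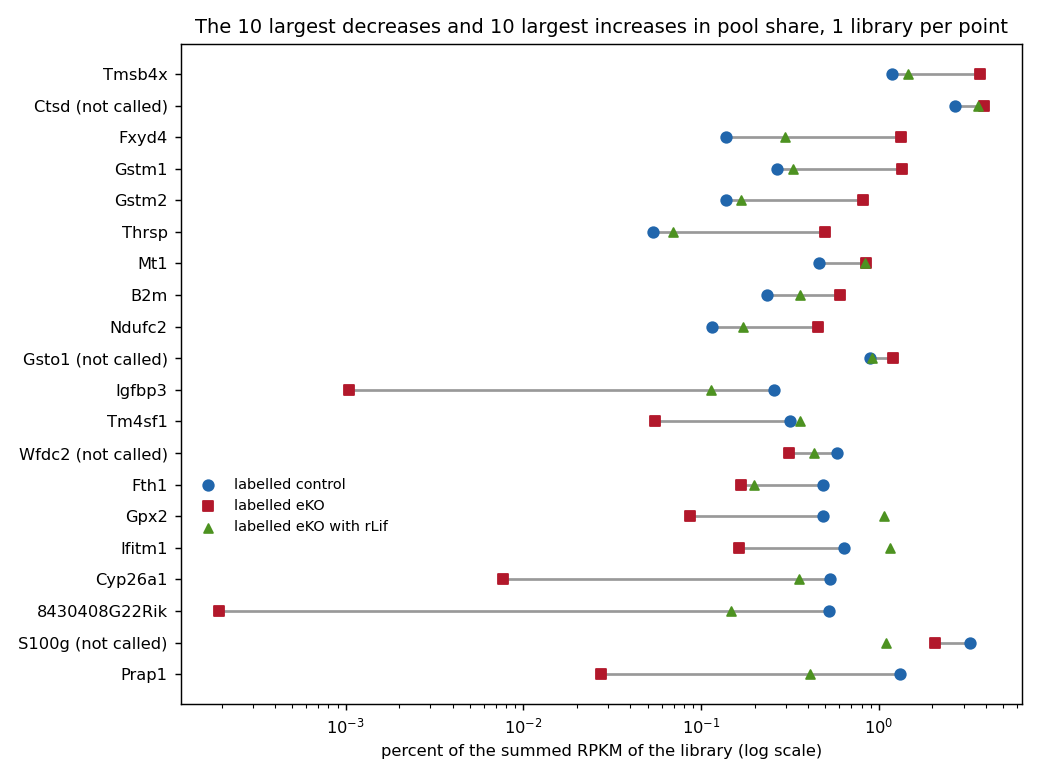
Percent of the summed RPKM (horizontal axis, log scale) taken by the 10 genes with the largest decrease and the 10 with the largest increase between the libraries labelled control (circles) and eKO (squares), with the rLif library as triangles, 1 library per point. *Prap1* moved from 1.31% to 0.0272% and *Tmsb4x* from 1.19% to 3.71%.

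Below these, the leading called genes of each abundance class were of mixed function. Between 100 and 1000 RPKM the leading genes called lower, beside *Igfbp3*, were *Fkbp1a* (1175 and 414 RPKM, log2 ratio -1.50), *Xbp1* (1317 and 169.7, -2.96), *Sdcbp* (1077 and 368, -1.55) and *Cxcl17* (976 and 465, -1.07). *Xbp1* encodes a transcription factor of secretory cells that acts in the unfolded protein response. Those called higher were *Krt19*, *Hddc2* (483 and 1360.1 RPKM, 1.49), *Cd9* (501 and 1266, 1.34), *Mt2* and *Ndufa2*. Between 10 and 100 RPKM *Lcn2*, *Rnf186* (182 and 17.3 RPKM, -3.40), *Tmprss2*, *C2cd4a* (187 and 7.83, -4.58) and *Basp1* (150.3 and 43.7, -1.78) led the genes called lower. *Pla2g4a*, *Ptplad1* (51.6 and 147 RPKM, 1.51), *Oard1* (62.8 and 134, 1.09), *Nipsnap1* (33.7 and 159, 2.24) and *Anxa5* (57.1 and 133, 1.22) led those called higher. *Cxcl17*, *Oard1* and *Ndufa2* lay close to the limit, and each lost its call under upper quartile scaling, total count scaling or length centring.

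Function was described with 85 gene lists. In 43 of them the share called was at least 1.5 times that of all genes, and 9 lists of at least 20 tested members had called shares of 0% to 8.38%. Of the 43, 27 held more members called lower than higher, 12 the reverse and 4 equal numbers. The 85 lists together held 3661 tested genes, of which 21.9% were called, against 17.2% over all genes. Lists of protein synthesis and turnover were called at 7.56% of 476 genes and those of transcription and the cell cycle at 12.2% of 744, whereas growth factors (32.8% of 293), proteases (33.7% of 208), cytokine signalling (31.8% of 336) and transport (30.1% of 452) stood above.

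**Figure D4:**
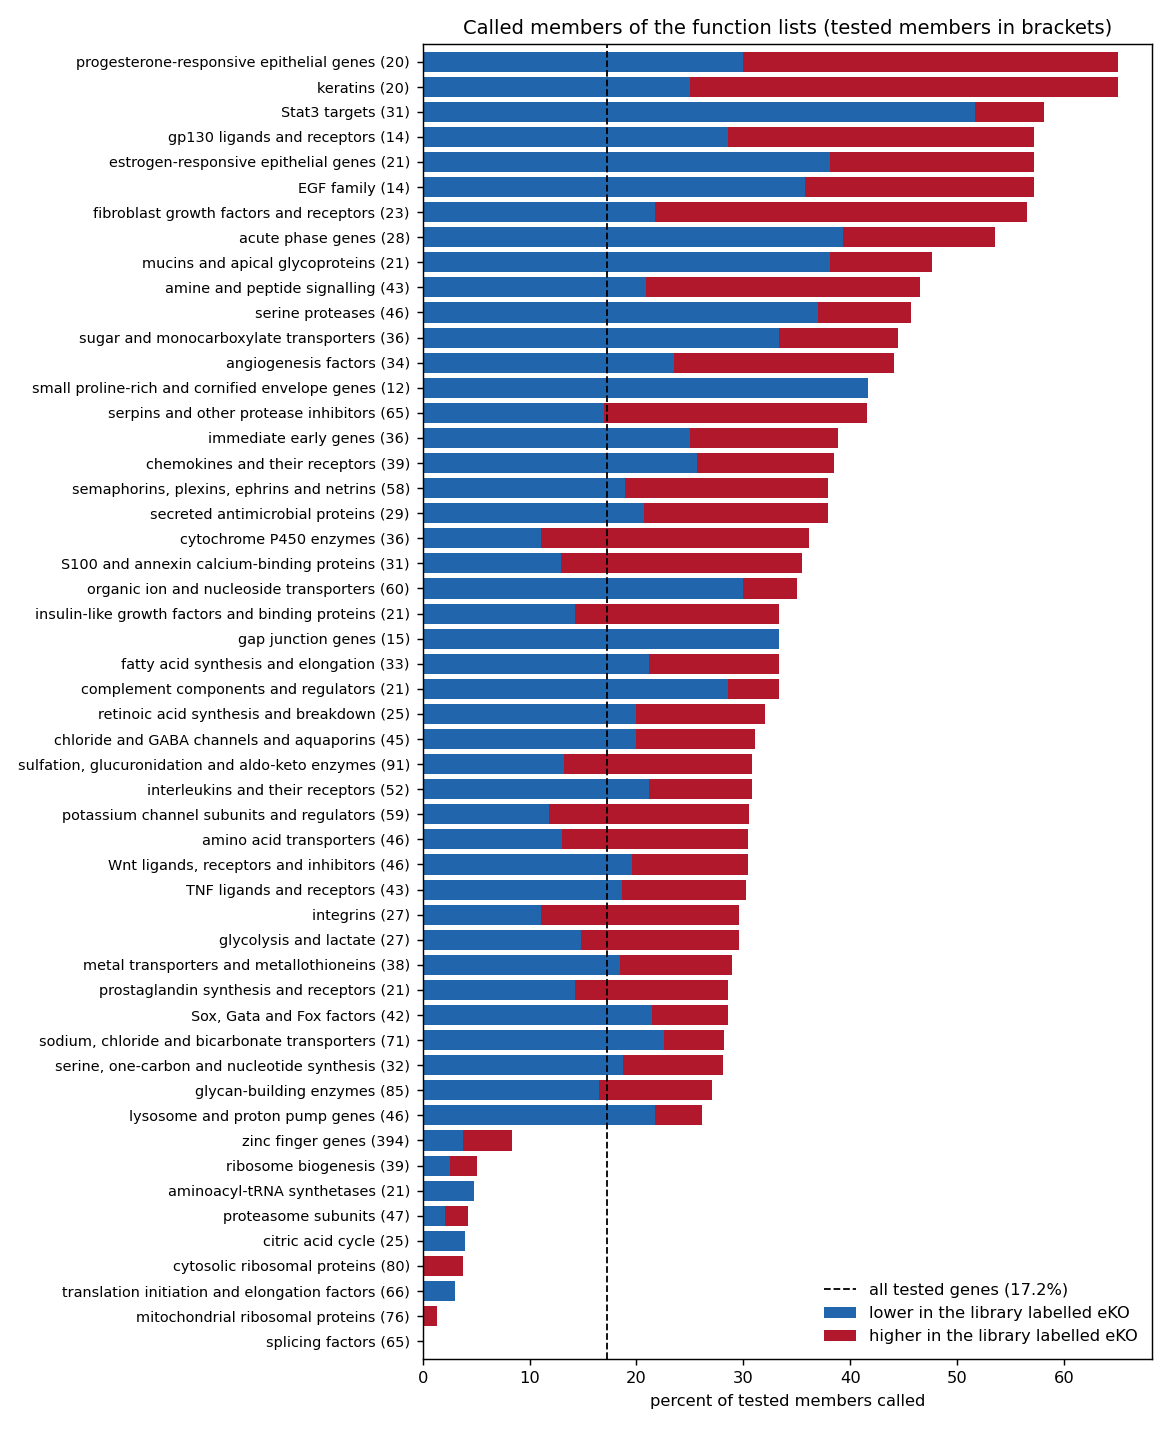
Percent of tested members called lower (blue) and higher (red) in the library labelled eKO for the 43 lists with high and the 9 lists with low called shares, with the number tested in brackets, and the share of all genes (17.2%) as a dashed line. Keratins and progesterone-responsive genes had the highest shares (65.0%), and none of 65 splicing factors was called. Some of the called keratins had few counts, such as *Krt1* (0 and 20).

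Receptors and ligands that act through gp130 differed in both directions. Of 14 tested members 4 were higher and 4 lower, where 17.2% of all genes were called, with a median log2 ratio of -0.22. At a minimum of 50 counts the median was 0.13. The receptor gene *Lifr* had 20.6 and 4.93 RPKM in the libraries labelled control and eKO (log2 ratio -2.06), and *Osmr*, which binds oncostatin M, had 11.6 and 0.511 RPKM (-4.50). Among ligands, *Clcf1* was at 53.9 and 7.62 RPKM (-2.82) and *Ctf1*, which encodes cardiotrophin 1, at 51.8 and 148 RPKM (1.52). The shared subunit *Il6st* was at 4.80 and 5.28 RPKM (0.14). *Lif*, *Il6* and *Ctf2* were the other members called higher and *Il6ra* the other called lower. *Lif* (0 and 28 counts) passed the count minimum only through the library labelled eKO, which nearly fixed its call. Of the kinases, *Jak1* was at 42.8 and 31.6 RPKM (-0.44), with exons that overlap another gene, and *Jak2* at 15.4 and 49.4 RPKM (1.68). *Stat3* itself lay at the limit, at 50.8 and 24.9 RPKM (-1.03). It was not called in the main setting but was called lower when libraries were scaled by total counts.

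Stat3 targets formed the list with the largest share of members called lower. Of 31 tested, 16 were lower and 2 higher, with a median log2 ratio of -1.62 and -1.49 after length centring. The acute phase transcription factor genes *Cebpb* (534 and 154 RPKM, -1.80) and *Cebpd* (387 and 73.3 RPKM, -2.40, exons overlapping another gene) were the most abundant. *Lcn2*, an iron-scavenging protein of innate defence, was at 195 and 4.49 RPKM (-5.44). The 2 members called higher were *Hif1a* (41.2 and 102 RPKM, 1.30), the oxygen-regulated factor, and the interleukin-1 receptor gene *Il1r1* (4.05 and 10.4 RPKM, 1.36), which was picked after its value was seen. *Junb* (227 and 121 RPKM, -0.91) and *Bcl2l1* (88.2 and 47.0 RPKM, -0.91) were not called. This list overlaps genes already described for these libraries and is no independent evidence of direction.

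Stat proteins bind palindromes of the form TTCNNNGAA. Of the 18 genes called lower among Stat3 targets and Jak-Stat factors, 14 had a RefSeq promoter window (250 bases before to 50 after the annotated start, GRCm38.p6), and 4 windows held this motif. The stretches around it are shown for the 3 of these genes with the highest control level (the other was *Fga*), so that the letters can be set beside the counts, 5′ to 3′ on the gene's strand, with the motif in capitals.
*Tnfrsf1a* (chr6:125349473-125349517, plus strand): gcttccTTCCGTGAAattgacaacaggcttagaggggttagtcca
*Socs3* (chr11:117969482-117969550, minus strand): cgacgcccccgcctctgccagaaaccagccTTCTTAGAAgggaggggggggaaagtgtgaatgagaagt
*Icam1* (chr9:21015868-21015936, plus strand): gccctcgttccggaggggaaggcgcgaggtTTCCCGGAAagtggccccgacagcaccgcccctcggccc
The motif of *Icam1* ended 34 bases before the annotated start, that of *Socs3* 146 bases and that of *Tnfrsf1a* 236 bases before it. *Socs3*, the feedback inhibitor of the pathway, was at 21.6 and 1.96 RPKM in the libraries labelled control and eKO (log2 ratio -3.46) and at 59.8 RPKM with rLif. The tumour necrosis factor receptor gene *Tnfrsf1a* was at 31.3 and 9.84 RPKM (-1.67). *Icam1*, an adhesion molecule for leukocytes picked for its motif, was at 3.34 and 1.21 RPKM (-1.47). Across all called genes the motif, which reads the same on both strands, was in 9.91% of 1019 genes called lower with a window, 9.32% of 912 called higher and 8.71% of all 11403 tested genes with a window, and in 8.30% of the 32851 windows of the table. The AP-1 motif TGANTCA was in 10.4%, 8.22% and 6.97% of the same groups (7.81% of all windows). No difference between these shares was tested. A match is a description of letters and not of binding.

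Acute phase, complement and cytokine lists leaned to lower calls. Of 28 acute phase genes 11 were lower and 4 higher (median log2 ratio -0.77). The copper carrier gene *Cp* (28.1 and 2.91 RPKM, -3.27, overlapping exons) and *Lrg1* (15.5 and 0.746 RPKM, -4.38) were among the former. The 4 higher were *Serpina1a* to *Serpina1d*, near-identical protease inhibitor genes among which reads could be split (*Serpina1d* was not called after length centring), led by *Serpina1b* (1.11 and 21.3 RPKM, 4.26). Complement had 6 lower and 1 higher of 21, and the former included inhibitors that shield host cells, *Serping1* (557 and 89.2 RPKM, -2.64) and *Cd55* (165 and 40.3, -2.04). The member called higher, *Cd46* (3 and 39 counts, 3.51), is also such an inhibitor, and *Cd59a*, another, was not called (46.4 and 58.2 RPKM, 0.33). *Cd46* and *Cd59a* were picked after their values were seen. The macrophage complement genes *C1qb* (181 and 175 RPKM) and *C1qc* (131 and 118 RPKM) lay within 2-fold. Chemokines and their receptors had 10 lower and 5 higher of 39, with *Cxcl14* at 105 and 16.7 RPKM (-2.65) and *Ccl6* at 13.3 and 36.5 RPKM (1.45). Interleukins and their receptors had 11 lower and 5 higher of 52. *Il20ra*, a receptor subunit for interleukin-20 family cytokines, was at 37.1 and 1.63 RPKM (-4.51), and *Il13ra1* at 22.8 and 4.61 RPKM (-2.30). Of 43 TNF ligands and receptors, 8 were lower, such as *Tnfrsf12a* (45.8 and 11.2 RPKM, -2.03, overlapping exons), and 5 higher, such as *Traf1* (4.62 and 14.7 RPKM, 1.67). Secreted antimicrobial proteins were split, 6 lower and 5 higher of 29, with lysozyme *Lyz1* at 20.8 and 94.4 RPKM (2.18). Lactoferrin *Ltf*, the gene whose promoter drives the Cre, was at 39.7 and 12.6 RPKM (-1.65). In the rLif library, also from females with Ltf-Cre, *Ltf* was at 11.9 RPKM. The part of the Cre allele in these values was not tested.

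Growth factor lists held members called in both directions. Fibroblast growth factors and receptors had 8 higher and 5 lower of 23 and a median log2 ratio of 0.01. *Fgf1* went from 0.557 RPKM in the library labelled control to 32.6 in the one labelled eKO (5.87) and *Fgf18* from 5.11 to 30.9 (2.60), whereas *Fgf9* went from 27.6 to 0.875 (-4.98). *Dusp6*, a phosphatase that damps Erk downstream of these receptors, was at 31.6 and 9.91 RPKM (-1.67), and the receptor gene *Fgfr2* at 40.4 and 45.1 RPKM was not called. Of 14 EGF family genes 5 were lower, such as the ligands *Areg* (35.3 and 6.85 RPKM, -2.36) and *Hbegf* (18.9 and 6.70, -1.50). Another 3 were higher, including the receptor *Egfr* (2.08 and 6.10 RPKM, 1.55). The Wnt list had 9 lower and 5 higher of 46. The ligand gene *Wnt7b* (chromosome 15, 85535437 to 85581821, overlapping exons) was at 174 and 0.828 RPKM (-7.71), and *Lgr5*, the receptor for R-spondins, at 21.1 and 0.185 RPKM (-6.83). The receptor *Fzd6* was at 8.71 and 46.3 RPKM (2.41), while *Wnt11* (247 and 190.0 RPKM) and *Ctnnb1* (136 and 150.3 RPKM) were not called.

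Insulin-like growth factor genes took 0.338% of the pool in the library labelled control and 0.0791% in the one labelled eKO, and the members other than *Igfbp3* summed to 0.0823% and 0.0780%. Of 21 members 4 were higher, including *Igfbp6* (27.6 and 99.6 RPKM, 1.85), *Igf1* (13.7 and 42.9 RPKM, 1.65) and the hormone gene *Stc1* (1.70 and 26.7 RPKM, 3.97), and 3 were lower. Angiogenesis factors had 8 lower and 7 higher of 34. Tissue factor, encoded by *F3*, was at 425 and 73.9 RPKM (-2.53), placental growth factor, encoded by *Pgf*, at 264 and 17.7 (-3.90), and *Sphk1*, a kinase that makes sphingosine 1-phosphate, at 69.1 and 5.69 (-3.60). Guidance cues were evenly split, 11 higher and 11 lower of 58. The ephrin gene *Efna1* was at 185 and 18.4 RPKM (-3.33), and *Efnb2* at 10.2 and 32.7 RPKM (1.68). Signalling amines and peptides had 11 higher and 9 lower of 43. The most abundant called member was *Nmb*, encoding neuromedin B, at 624 and 59.9 RPKM (-3.38). The angiotensin receptor gene *Agtr2* was at 54.9 and 2.36 RPKM (-4.54), and the vasoconstrictor gene *Edn1* at 17.2 and 38.6 RPKM (1.17, not called under total count scaling).

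Hormone-responsive lists had high called shares without a shared direction. Progesterone-responsive epithelial genes had 7 higher and 6 lower of 20 (median log2 ratio 0.35). Beside *Cyp26a1*, the itaconate-producing enzyme gene *Irg1* was lower (408 and 192 RPKM, -1.09), a call lost under upper quartile scaling and length centring. The calcium-binding protein gene *Calb1* (188 and 2131 RPKM, 3.51) and the homeobox gene *Msx1* (194 and 659 RPKM, 1.77, overlapping exons) were higher, while the histamine-making enzyme gene *Hdc* (554 and 810.4 RPKM, 0.55) and *Sox17* (343 and 545 RPKM, 0.67) were not called. Estrogen-responsive genes had 8 lower and 4 higher of 21 (median -0.95). Of the former, *Clu*, an extracellular chaperone, was at 143 and 40.8 RPKM (-1.81). Both lists hold genes already described for these libraries.

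Retinoid and prostaglandin genes showed large differences at single steps. Genes for retinoic acid synthesis and breakdown took 0.590% of the pool in the library labelled control and 0.0534% in the one labelled eKO, and without *Cyp26a1* 0.0596% and 0.0457%. Of 25 members 5 were lower, among them *Lrat*, which makes retinyl esters for storage (35.2 and 4.52 RPKM, -2.96), and *Rdh12*, which interconverts retinal and retinol (14.4 and 0.707 RPKM, -4.35). *Rdh10*, which makes retinal for the next step, was not called (74.6 and 64.1 RPKM, -0.22). In the prostaglandin list 3 of 21 were higher and 3 lower. The phospholipase genes that release arachidonic acid, *Pla2g10* (93.8 and 1044 RPKM, 3.48) and *Pla2g4a* (31.2 and 167 RPKM, 2.42), were higher. The receptor gene *Ptger2* (271 and 70.9 RPKM, -1.94) was lower, and *Ptgs1*, one of the cyclooxygenases, was not called (44.8 and 33.2 RPKM, -0.43).

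Calls leaned lower among transporters of sugars, organic ions and nucleosides, although most members were not called. Sugar and monocarboxylate transporters had 12 lower and 4 higher of 36 (median log2 ratio -0.93). The glucose transporter genes went opposite ways, *Slc2a1* at 32.6 and 9.52 RPKM (-1.78) and *Slc2a3* at 17.2 and 88.5 RPKM (2.37). *Slc37a4*, which moves glucose 6-phosphate into the endoplasmic reticulum, was at 100.1 and 15.6 RPKM (-2.68). Organic ion and nucleoside transporters had 18 lower and 3 higher of 60 (median -0.48), led by *Slc46a2* (chromosome 4, 59905899 to 59915056) at 107 and 1.94 RPKM (-5.79). Sodium, chloride and bicarbonate transporters had 16 lower and 4 higher of 71, yet their share of the pool went from 0.341% to 1.53%. Without *Fxyd4* the members summed to 0.202% and 0.198%. *Slc26a6*, an anion exchanger, was at 17.5 and 1.28 RPKM (-3.77), and the carbonic anhydrase gene *Car2* at 476 and 502 RPKM (0.07) was not called. Chloride and GABA channels and aquaporins had 9 lower and 5 higher of 45. *Gabrp*, a subunit of GABA-gated chloride channels, had 1925 counts in the library labelled control and 0 in the one labelled eKO. This was 729.9-fold lower with the 0 set to 3 counts, and the interval ended at a log2 ratio of -9.21.

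Amino acid and potassium transport leaned the other way in number. Amino acid transporters had 8 higher and 6 lower of 46, and the most abundant called members, *Slc1a1* (176 and 71.7 RPKM, log2 ratio -1.29) and *Slc1a5* (156 and 67.1 RPKM, -1.22, not called after length centring), were lower. The peptide transporter gene *Slc15a2* was at 3.89 and 47.9 RPKM (3.62) and *Slc38a2* at 25.6 and 67.8 RPKM (1.41). Potassium channel genes had 11 higher and 7 lower of 59, the most abundant of the former being *Kcnj13* (4.46 and 22.3 RPKM, 2.32). The most abundant member, *Kcnk1*, was at 389 and 389.8 RPKM (0.00). Of 38 metal transporters and metallothioneins 7 were lower and 4 higher. The zinc importer gene *Slc39a8* was at 78.1 and 3.93 RPKM (-4.31) and *Slc39a4* at 1204 and 718 RPKM (-0.75), which was not called. *Mt2* was at 498 and 1262 RPKM (1.34).

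At the cell surface, connexins and small proline-rich proteins had lower calls only. Of 15 gap junction genes 5 were lower and 0 higher. *Gjb2* (chromosome 14, 57098602 to 57104702) was at 180.2 and 7.13 RPKM (log2 ratio -4.66) and *Gjb5* at 6.28 and 1.41 (-2.15). *Gjb6*, picked after its value was seen, had 45 and 8 counts. *Gja1*, the connexin abundant in stroma and muscle, was at 43.9 and 50.8 RPKM (0.21). Of 12 small proline-rich and cornified envelope genes 5 were lower and 0 higher, all of them *Sprr2* genes, which are similar in sequence and share reads. *Sprr2f* was at 1085 and 234 RPKM (-2.21) and *Sprr2g* at 606 and 136 RPKM (-2.15), with 5977 and 3762 RPKM in the rLif library.

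Keratins, which build the filaments of epithelial cells, had 8 higher and 5 lower of 20 and a median log2 ratio of 1.04. The called share and the median rest in part on rare members. *Krt1* (0 and 20 counts) and *Krt76* (0 and 27) passed the count minimum only through the library labelled eKO, and *Krt79* had 5 and 114 counts. The simple-epithelium keratins did not move together, with *Krt19* (chromosome 11, 100140811 to 100145919) at 246 and 1448 RPKM (2.56), *Krt8* at 464 and 957 (1.04), *Krt18* at 1088 and 993 (-0.13) and *Krt7* at 113 and 129 (0.19). *Krt8* lay at the limit and lost its call when libraries were scaled by total counts. Mucins and apical glycoproteins had 8 lower and 2 higher of 21. *Spp1*, the secreted integrin ligand osteopontin, was at 133 and 26.5 RPKM (-2.32), and *Ceacam1* at 6.66 and 32.4 RPKM (2.28). Enzymes that build mucosal glycans had 14 lower and 9 higher of 85, and *Gcnt3*, which starts branches on mucin chains, was at 11.7 and 155 RPKM (3.73). Of 27 integrins 5 were higher and 3 lower, with *Itgb1* at 47.1 and 44.5 RPKM (-0.08) among those not called.

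Serine proteases leaned to lower calls and protease inhibitors slightly to higher ones. Serine proteases had 17 lower and 4 higher of 46 (median log2 ratio -0.72), among them *Prss23* (407 and 99.1 RPKM, -2.04) and the membrane-bound *Tmprss2* (153 and 44.2 RPKM, -1.79), *Tmprss4* (72.5 and 16.9, -2.10) and *St14* (65.3 and 27.2, -1.26), which encodes matriptase. *Prss8*, encoding prostasin, was not called (261 and 246 RPKM, -0.09, overlapping exons). Serpins and other protease inhibitors had 16 higher and 11 lower of 65 (median 0.34). The inhibitor of matriptase, encoded by *Spint1*, was at 276 and 67.9 RPKM (-2.02), and the metalloproteinase inhibitor gene *Timp3* at 11.9 and 42.8 RPKM (1.84). Lysosome and proton pump genes had 10 lower and 2 higher of 46. The proton pump subunit gene *Atp6v0d2* was at 326 and 1.46 RPKM (-7.80), the lipase gene *Lipa* at 129 and 26.5 (-2.29) and *Ctsb* at 1014 and 405 (-1.32, overlapping exons). The lysosomal share of the pool nonetheless went from 4.01% to 5.28%, through *Ctsd*, without which it was 1.35% and 1.36%.

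**Figure D5:**
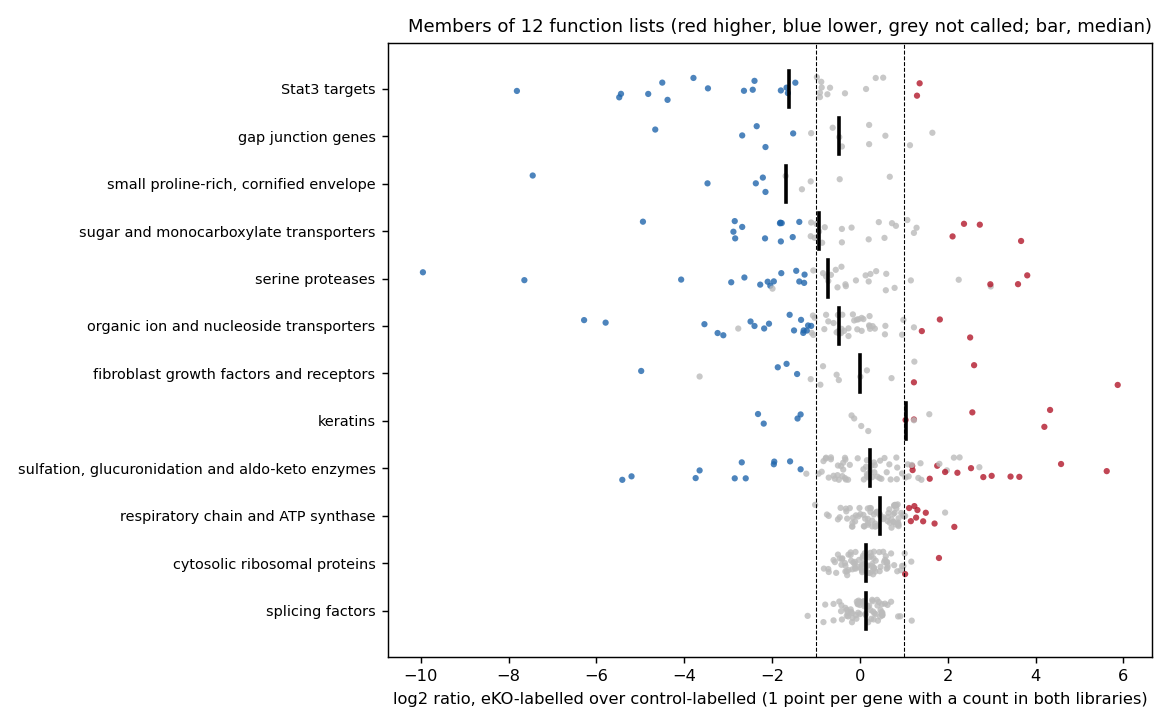
Log2 ratio of the library labelled eKO to the one labelled control for each member with a count in both libraries, in 12 function lists (red called higher, blue called lower, grey not called), with the list median as a black bar and dashed lines at a 2-fold difference. Called members of the gap junction list lie on the lower side and keratins on both sides, and cytosolic ribosomal proteins and splicing factors stay near 0 (medians 0.14 and 0.13).

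Metabolic lists held large differences at single enzymes. Enzymes of sulfation, glucuronidation and aldo-keto reduction had 16 higher and 12 lower of 91. The carbonyl reductase gene *Cbr2* was at 136 and 310.4 RPKM (1.19, not called after length centring) and *Ces1d*, a carboxylesterase, at 4.57 and 109 RPKM (4.58). The steroid 5-alpha-reductase gene *Srd5a1* was at 123 and 31.8 RPKM (-1.95). Cytochrome P450 genes had 9 higher and 4 lower of 36, but their share of the pool went from 0.552% to 0.0245% and *Cyp26a1* alone held 0.531% in the former. Fatty acid synthesis had 7 lower and 4 higher of 33. The triglyceride-making enzyme gene *Dgat2* was at 157 and 542 RPKM (1.79), and *Me1*, which supplies NADPH, at 14.4 and 0.954 RPKM (-3.92, overlapping exons). Glycolysis had 4 higher and 4 lower of 27, with *Ldhb* at 316 and 73.1 RPKM (-2.11), *Aldoc* at 24.2 and 0.818 (-4.89) and *Pfkfb3*, which raises glycolytic flux, at 9.60 and 48.3 (2.33). The main lactate dehydrogenase gene *Ldha* was at 720.2 and 764 RPKM (0.08).

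Respiratory chain and ATP synthase subunits encoded in the nucleus had 9 higher and 1 lower of 82, a called share of 12.2% that is below that of all genes, and a median log2 ratio of 0.46. Their share of the pool was 4.35% in control, 6.07% in eKO and 6.12% in rLif by label. After length centring the median was 0.29. *Ndufa2* (569 and 1238 RPKM, 1.12, overlapping exons) was at 1199 RPKM with rLif.

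Lists of the machinery for splicing RNA and making protein held few called genes. None of 65 splicing factors was called, and 3 of 80 cytosolic ribosomal protein genes, 1 of 76 mitochondrial ribosomal protein genes, 2 of 66 translation factors, 1 of 21 aminoacyl-tRNA synthetases, 2 of 47 proteasome subunits, 2 of 39 ribosome biogenesis genes, 1 of 25 citric acid cycle genes and 33 of 394 zinc finger genes were. *Eef1a1*, the main elongation factor, was at 1719 and 1115 RPKM (-0.63). Medians of these lists lay between -0.21 and 0.16, and those of both ribosomal lists turned from 0.14 and 0.16 to -0.08 and -0.04 after length centring. The exceptions included *Eif4ebp1*, an inhibitor of translation initiation, at 197 and 44.0 RPKM (-2.16), *Yars*, at 88.9 and 19.9 (-2.16, overlapping exons), and *Idh2*, the mitochondrial isocitrate dehydrogenase, at 77.6 and 22.5 (-1.78).

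Regulators of transcription were mixed. Immediate early genes had 9 lower and 5 higher of 36, with *Myc* at 76.4 and 24.4 RPKM (log2 ratio -1.64), *Cyr61* at 43.4 and 5.36 (-3.02) and the phosphatase gene *Dusp1* at 21.8 and 69.5 (1.67). *Ier3* (155 and 241 RPKM, 0.63) was not called. Sox, Gata and Fox factors had 9 lower and 3 higher of 42. *Foxo1* was at 53.2 and 11.8 RPKM (-2.17) and *Gata2*, which acts with the progesterone receptor, at 28.8 and 87.1 (1.60). *Foxq1* had 369 and 0 counts, 139.9-fold lower with the 0 set to 3 counts, and its interval ended at a log2 ratio of -6.82. Calcium-binding S100 and annexin genes had 7 higher and 4 lower of 31, with *Anxa1* at 196 and 494 RPKM (1.33) and *Anxa2* at 129 and 350.2 RPKM (1.44). Serine, one-carbon and nucleotide synthesis had 6 lower and 3 higher of 32, with *Ctps* at 32.8 and 7.09 RPKM (-2.21) and *Tyms*, which makes thymidylate, at 18.2 and 45.3 RPKM (1.32).

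Of the other 33 lists, those below are given by counts, and some are not reported here. Their calls can lean to 1 direction at a called share no higher than that of all genes (17.2%). Unfolded protein response and chaperone genes had 5 lower and 0 higher of 32 (15.6%, median log2 ratio -0.62), DNA replication and mitosis 7 lower and 1 higher of 48 (16.7%, -0.68), and cholesterol synthesis 5 lower and 0 higher of 25 (20.0%, -0.50). Interferon-stimulated genes had 8 lower and 1 higher of 38 (23.7%), glutathione and antioxidant enzymes 8 higher and 6 lower of 65 (21.5%), basement membrane and collagen genes 8 higher and 5 lower of 61 (21.3%, 0.48), metalloproteinases 10 higher and 6 lower of 66 (24.2%), and histone genes 6 higher and 1 lower of 59 (11.9%). Tight junction genes (7 of 38), cadherins, catenins and desmosomes (7 of 40), Jak and Stat factors (4 of 27), Notch genes (4 of 25) and BMP, activin and TGF-beta genes (10 of 56) were called at shares near that of all genes. Actin (10 of 75), microtubule (9 of 74), heat shock (8 of 74), small GTPase (10 of 73), Hox (2 of 22) and histocompatibility genes (3 of 33) had called shares between 9.09% and 13.7%.

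Called genes also lay together on chromosomes. In 20 places at least 4 consecutive tested genes were called in the same direction, 11 of them higher and 9 lower, with 85 genes in all. Whether this exceeds what scattered calls would give was not tested. Some runs reached 4 only through rare genes that passed the count minimum by 1 library alone. Examples were *Krt1* (0 and 20 counts) and *Hrh4* (0 and 23). The count minimum nearly fixed the call of such genes, so they are no support for grouping. Several runs were families of similar genes, in which reads can be shared. The run on chromosome 3 (92122204 to 92375229) held 6 genes called lower, of which 5 were *Sprr2* genes. The other, *Prr9* (13 and 0 counts), passed the count minimum only through the library labelled control. On chromosome 2, from 24153172 to 24282432, the interleukin-1 family genes *Il1f8* (95.4 and 27.7 RPKM, log2 ratio -1.78), *Il1f9*, *Il1f6* (14.0 and 0.749 RPKM, -4.22) and *Il1f5* were lower. Runs called higher held carboxylesterases on chromosome 8 (*Ces1d*, *Ces1e*, *Ces1f* and *Ces5a*), the *Serpina1* genes on chromosome 12, aldo-keto reductases on chromosome 13 (*Akr1c13* at 2.28 and 28.2 RPKM, 3.63, with *Akr1c19*, *Akr1c12*, *Akr1c21* and the pseudogene *Marcksl1-ps4*), keratins on chromosome 15, and the pregnancy-specific glycoprotein genes *Psg25*, *Psg27* and *Psg17* (0.361 and 18.6 RPKM, 5.69) with *Mill2* on chromosome 7. The runs with *Mill2*, *Serpina1d* and *Krt8* fell below 4 genes under a changed setting, since the call was lost for *Mill2* with total counts and length centring, for *Serpina1d* with length centring and for *Krt8* with total counts.

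Other runs held genes of mixed kinds, in which some members were of the same family. On chromosome 19 (29251828 to 29361871) *Jak2*, *Insl6* (148 and 646 RPKM, log2 ratio 2.13), *Rln1* (2.84 and 19.3 RPKM, 2.77) and *Plgrkt* (25.6 and 85.3 RPKM, 1.74) were higher. *Insl6* and *Rln1* encode relaxin-family peptides. On chromosome 17 (36860691 to 36947986) *Trim15*, *Trim10*, *Trim31* and *Rnf39* (70.8 and 2.36 RPKM, -4.91), which encode RING finger proteins, were lower. Elsewhere on chromosome 19 (37697808 to 38114263) *Cyp26a1*, *Myof*, *Cep55* and *Ffar4* were lower, a run that lost *Cep55* under upper quartile scaling and length centring. The run on chromosome 6 with *8430408G22Rik* ended at the chemokine gene *Cxcl12* (6.52 and 1.84 RPKM, -1.82). On chromosome 10, *Chpt1*, which makes phosphatidylcholine, was at 53.3 and 333 RPKM (2.65, overlapping exons) in a run of 4 called higher. The remaining runs, on chromosomes 2, 4, 7, 8, 11, 14 and 18, held genes of several families. Length centring took *Rasgrp1* from the run on chromosome 2 and *Shb* and *Aldh1b1* from the run on chromosome 4.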

How the data were processed

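Per the paper's methods, the authors amplified RNA with SMART-seq v4, aligned paired-end reads to GRCm38/mm10 with HISAT2 and counted them with featureCounts (Subread 2.0.0 per the labels). The deposited values are whole-number counts without normalization, although the methods speak of RPKM. Strand, multiple mapping and annotation release are not given in the sources used here, so genes with similar sequence or overlapping exons (1874 of 15694) are uncertain.

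RPKM used the deposited exon lengths and TMM sizes (edgeR 4.0.16 in R 4.3.3). Ratios have exact 95% Clopper-Pearson intervals (scipy 1.17.1). For fold values and medians, but not for intervals or calls, 0 counts were set to a floor of 3. The rule was tested on simulated counts that held counting error alone, so the test cannot show how it behaves with PCR or animal variation. Groups came from the labels. Alternatives were other scalings, minimum counts and limits, and edgeR and DESeq2 tests with assumed dispersions.

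Members and lists were chosen with earlier results of these data known, and some genes wrongly caught by name patterns were removed after values were seen. Named genes were the receptor and effector genes, up to 4 called and 2 not called members of each described list in order of the higher RPKM, the leaders of the pool and of each abundance class, and runs of neighbours, of which a few are not reported here. Gene types came from GENCODE M21 (14663 of 15694 matched).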

Additional observations from a re-analysis of the deposited data

How the results depend on the processing

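The number of genes called (2704) depended on the limit and on an assumed spread between animals. It was 5002 with a 1.5-fold and 868 with a 4-fold limit. Tests with an assumed dispersion, which add spread that the interval lacks, gave 1250 (edgeR exact test, dispersion 0.1), 402 (edgeR, 0.2) and 1306 (DESeq2 Wald test, 0.1). Other scalings, minimum counts, leaving out overlapping genes and length centring (chosen after seeing the data) gave 2235 to 2756. The calls were 46.9% higher in the main setting, 42.6% with total counts and 52.0% with upper quartile scaling, which moved the median of all genes to -0.06 and 0.07. The share of the pool that differed (24.1%) was 23.1% without length, 21.4% without the 10 genes of largest difference and 24.6% without overlapping genes (chosen after seeing the data). By mean CPM the called share was 19.3% from 1 to 10 and 13.1% from 10 to 100, and the cause was not tested. Of 85 lists, the called number stayed within 1.5 times for 85 with DESeq2 size factors, 83 with total counts and 82 with either upper quartile scaling or length centring. The sign of the median was kept by 85, 80, 78 and 78 of them. A minimum of 50 counts turned the medians of gp130 (to 0.13), fibroblast growth factor (-0.50), mucin (-0.39), antimicrobial (-0.25), cytochrome P450 (-0.21), calcium channel (0.17) and metalloproteinase (-0.01) genes. No paired analysis was possible because each group was 1 library.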
